A study of Mus musculus with 21 samples.

Results

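Expression of 10 genes that mark the endothelium of brain vessels or serve the adhesion of leukocytes to it (Cldn5, Pecam1, Cdh5, Vwf, Slc2a1, Mfsd2a, Icam1, Vcam1, Flt1 and Tek) was examined in bulk RNAseq data of the neocortex. The genes were chosen with earlier results of these data known and taken by symbol from the 48474 rows of the deposited count table. All 10 were among the 18248 genes tested. The table holds 11 wild-type (WT) and 10 transgenic rNLS8 (TG) mice, which carry a human TDP-43 without its nuclear localization signal under a tetracycline-dependent promoter, driven by the neurofilament heavy chain promoter and thus expressed mostly in neurons. Only TG mice carry both transgene and driver, and WT stands for control littermates that carry only a single one of them, on a C57BL/6J background. All 21 mice had received 350 µg of a non-targeting antisense oligonucleotide (ASO) in 10 µL into a ventricle at 17 to 19 weeks of age, so the WT mice are not naive. Doxycycline at 200 mg/kg of food kept the transgene off until 2 weeks after the injection, and tissue was taken 3 weeks after it had been withdrawn, from mice perfused with saline. Batch A, as the labels name it, holds 4 WT and 3 TG mice, and batch B holds 7 of each. The sex of the mice is not given. The labels name neocortex and the study's methods brain cortex, while one of its figure legends names hippocampus for this line.

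Brain endothelial cells are sealed to each other by tight and adherens junctions and carry nutrients into the brain through dedicated transporters, which together form the blood-brain barrier. Vascular endothelial growth factor and angiopoietins act on their receptors, and inflammatory cytokines make the endothelium display adhesion molecules to which integrins of leukocytes bind. Several of these genes are not restricted to endothelium, since glial cells can make Icam1 and Vcam1, and astrocytes make some Slc2a1. RNA of whole cortex was measured, in which fewer cells of a type and less RNA per cell cannot be told apart.

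Of the 10 genes, Icam1 and Slc2a1 were higher and Flt1 was lower in TG than in WT mice at an adjusted p-value under 0.05. Icam1 doubled, whereas Slc2a1 rose by 13.4% and Flt1 fell by 11.4%. The other 7 genes, among them the junction and identity genes Cldn5, Pecam1, Cdh5 and Vwf, did not pass the test. These 3 calls have to be read against the whole table, in which 44.7% of the genes tested differed, 23.0% being higher and 21.7% lower. None of the 10 genes had TG values wholly separate from the WT values, which 7.65% of all genes tested had. The median log2 fold change (TG over WT, as everywhere below) was -0.02 over the 10 genes and -0.00067 over all genes tested, and these were 0.06 and 0.08 with scaling to library size only. Summed over the 10 genes, the level was between 331 and 403 counts scaled to the library (CPM) in WT and between 313 and 390 CPM in TG mice.

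**Figure D1:**
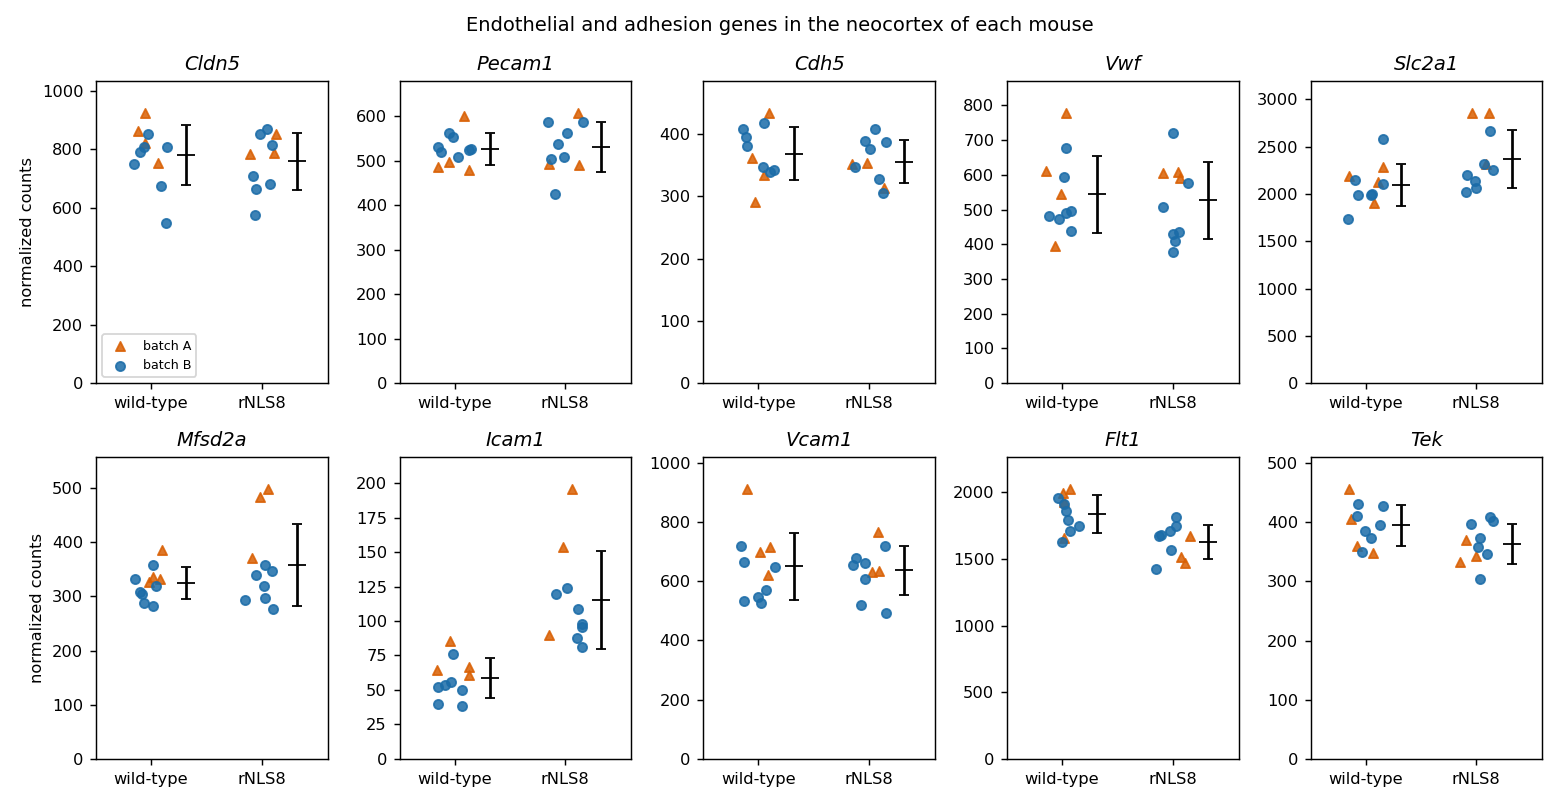
Normalized counts (vertical axes, from 0) of each gene in each mouse, with triangles for batch A, circles for batch B and bars for mean ± SD of the 11 wild-type and the 10 rNLS8 mice. For Icam1, 9 of 10 rNLS8 mice lie above the highest wild-type mouse, while the ranges overlap more for the other genes. For Flt1 and for Tek, 4 of 10 rNLS8 mice lie below the lowest wild-type mouse.

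Total counts per mouse were between 20700912 and 22263809, so that 3 counts, the limit that a count of 0 allows, are worth between 0.135 and 0.145 CPM. Normalized counts given here are counts scaled to the mean effective library size, and SE is the standard error of a log2 fold change. Reads carry no molecular identifiers, so such limits cover counting error only. Counts of the 10 genes in single mice ranged from 37 (Icam1) to 2862 (Slc2a1). The TG mice T60303 and T61340 of batch A had the highest summed level of 11 microglial markers, 769 and 675 CPM, against 496 to 606 CPM in the other TG mice and 456 to 532 CPM in WT mice. When both are omitted, T61342 is the only TG mouse left in batch A. WT mouse T61334 of batch A had the highest summed level of 9 choroid plexus markers, at 2310 CPM, whereas the other WT mice had between 24.4 and 902 CPM and TG mice between 31.4 and 1160 CPM. Without T60303 and T61340, the calls of Slc2a1 and, in the lists below, of Cd47, Kdr, Ednra, Slc2a4, Relb, Ramp2, Itm2a, Gad2, Tmem119, Csf1r and Aif1 were lost, and that of the neuronal marker Rbfox3 was gained. The counts then were 5 instead of 6 for leukocyte adhesion and for glucose transporters, 3 instead of 4 for the VEGF pathway, 4 instead of 5 for haemostasis and 10 instead of 11 for inducers of adhesion molecules.

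Divided by the length of all exons of a gene, the WT levels fell into steps. Slc2a1 (597 ± 62.5 normalized counts per kb, SD, n = 11) and Cldn5 (551 ± 71.8) were the most abundant, and their difference was smaller than their SD. Mfsd2a (144 ± 13.4) and Flt1 (136 ± 10.4) came next and were also within an SD of each other. Cdh5 (87.5 ± 10.1), Pecam1 (84.5 ± 5.69), Tek (83.7 ± 7.48) and Vcam1 (73.3 ± 12.7) formed a group in which neighbours differed by less than the larger SD of the pair. Below them were Vwf (33.9 ± 6.97) and Icam1 (13.4 ± 3.30), the least abundant of the 10. In TG mice the order differed only in that Pecam1 (85.1) stood above Cdh5 (84.6), and Icam1 remained last at 26.4 normalized counts per kb. Exon lengths join all annotated transcripts, so a gene with many rarely used exons comes out too low.

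Icam1 encodes an adhesion molecule of the immunoglobulin family, to which the integrins made of Itgb2 with Itgal or Itgam bind. Its gene (ENSMUSG00000037405) lies on chromosome 9 of GRCm38 from 21015985 to 21028817 on the plus strand. Because Icam1 is the only one of the 10 genes that doubled, the 250 bases before its RefSeq start (GRCm38.p6, chr9:21015690-21015939, plus strand) are shown, beside those of Flt1 (chr5:147726012-147726261, minus strand), which fell. Capitals mark matches to motifs that inflammatory transcription factors are known to bind, and the motifs were chosen with the expression values known.
Icam1: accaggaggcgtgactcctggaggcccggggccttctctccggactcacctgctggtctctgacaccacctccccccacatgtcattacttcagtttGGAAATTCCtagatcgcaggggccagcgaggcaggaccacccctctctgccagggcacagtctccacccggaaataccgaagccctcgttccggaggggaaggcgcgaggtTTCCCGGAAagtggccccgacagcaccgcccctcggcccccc
Flt1: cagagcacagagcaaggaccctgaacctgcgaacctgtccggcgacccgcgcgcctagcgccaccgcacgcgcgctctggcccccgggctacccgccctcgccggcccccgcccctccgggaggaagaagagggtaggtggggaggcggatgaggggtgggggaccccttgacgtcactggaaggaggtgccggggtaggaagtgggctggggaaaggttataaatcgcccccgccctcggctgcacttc
The Icam1 window holds GGAAATTCC, a match to the NF-kB palindrome GGAANTTCC, beginning 153 bases before the start. It also holds TTCCCGGAA, a match to TTCNNNGAA, the letters of gamma-activated sites, beginning 42 bases before the start. The RefSeq start of Icam1 lies upstream of the GENCODE start at 21015985, so these distances hold for the RefSeq start only. Both motifs read the same on either strand and the matches do not overlap. GGAANTTCC was present in 0.813% and TTCNNNGAA in 7.02% of 32851 promoter windows of this length. The Flt1 window held neither, nor any of the other letters searched on both strands, which were GGGNTTTCC (1.461% of windows), GAAANNGAA (7.129%) and ACGTG (16.572%). RefSeq windows were matched for 6 of the 10 genes (Cldn5, Slc2a1, Mfsd2a, Icam1, Flt1 and Tek). Mfsd2a held GAAANNGAA and ACGTG, Slc2a1 held ACGTG, and no window other than that of Icam1 held GGAANTTCC or TTCNNNGAA. A match is a string of letters and not a measured binding site.

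In WT mice of batch A, Icam1 had 61.1, 64.7, 67.0 and 85.5 normalized counts, and in those of batch B between 38.1 and 76.1 with a median over all WT mice of 55.7. In TG mice of batch A it had 89.8 (T61342), 153 (T61340) and 196 (T60303), and in batch B 81.3, 87.3, 95.6, 97.6, 108, 119 and 124. All 10 TG mice but T_70267, at 81.3, were above the highest WT mouse T61334. Within each batch the genotypes did not overlap, but the share of all genes tested with such a separation within a batch was not counted. The means were 58.5 ± 14.4 (SD, n = 11) in WT and 115 ± 35.5 (SD, n = 10) in TG mice, which on the log2 scale is a rise of 1.003 (SE 0.130, adjusted p = 8.96e-07). Icam1 was called in each batch alone as well, with a log2 fold change of 1.10 (adjusted p = 0.0183) in batch A and 0.96 (adjusted p = 2.66e-05) in batch B. It was the only one of the 10 genes called in either batch, while 11.8% of genes tested were called in batch A and 39.1% in batch B. Without T60303 and T61340, in which Icam1 was highest, the log2 fold change was 0.85 (adjusted p = 1.88e-05). Without T61334 it was 1.04 (adjusted p = 1.07e-06).

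Vcam1 encodes the related adhesion molecule that binds the integrin of Itga4 and Itgb1, and is likewise known to be induced on inflamed endothelium. It lies on chromosome 3 from 116109949 to 116129688. WT values ranged from 525.0 to 911 normalized counts with a median of 648, and TG values from 493 to 765 with a median of 644. The TG values lay almost wholly within the WT range, and both medians were close. The log2 difference was -0.01 (SE 0.080, 95% interval -0.18 to 0.15, adjusted p = 0.915). The WT maximum was mouse T61334, with the next WT mouse at 720, and without it the log2 fold change was 0.03. A change of Vcam1 was not detectable, and the interval does not reach the rise of Icam1. The antisense gene Gm47079 overlaps the end of Icam1 and Gm43109 the start of Vcam1, and whether the counting used strand is not given in the sources used here, so reads of these pairs cannot be told apart.

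Among 16 other genes of leukocyte adhesion and integrins, 11 were tested, of which 3 rose and 3 fell. Over all genes tested, 23.0% were higher and 21.7% lower. Of the integrin partners of Icam1, Itgb2 rose from 119 ± 16.2 (SD, n = 11) to 168 ± 43.3 normalized counts (SD, n = 10; log2 fold change 0.49, adjusted p = 0.00102). Itgam (0.05, adjusted p = 0.514) and Itgal (-0.24, adjusted p = 0.399) did not pass the test. The partners of Vcam1 went opposite ways, with Itga4 falling (-0.69, adjusted p = 5.07e-05) and Itgb1 rising (0.21, adjusted p = 0.00104). Alcam, an adhesion molecule of endothelium and neurons, fell most in this list, from 2979 ± 455 to 1686 ± 394 normalized counts, and all 10 TG mice were below the lowest WT mouse (log2 fold change -0.86, adjusted p = 1.20e-07). Cd44, a receptor for hyaluronan, rose (0.57, adjusted p = 0.000668), and Cd47 fell (-0.21, adjusted p = 0.0380). The endothelial selectins that start the rolling of leukocytes were near the limit of counting, with 32 counts of Sele and 7 of Selp over all 21 mice.

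Most of the tested cytokines, receptors and transcription factors known to induce adhesion molecules were higher in TG mice. The list of 19 genes also holds the NF-kB inhibitors Nfkbia and Tnfaip3. Of these 19 genes 14 were tested, 11 rose and none fell, with a median log2 fold change of 0.33, against 23.0% of all genes tested that were higher. The interferon gamma receptor chains Ifngr2 (0.78, adjusted p = 3.43e-12) and Ifngr1 (0.31, adjusted p = 4.12e-05) rose, and for Ifngr2 all 10 TG mice were above every WT mouse. Il1a, Il1r1, Tnfrsf1a, Irf1 and the NF-kB subunits Rela, Nfkb1, Nfkb2 and Relb rose as well. Of the 3 that did not pass the test, the NF-kB inhibitors Nfkbia (-0.09, adjusted p = 0.486) and Tnfaip3 (0.01, adjusted p = 0.974) showed almost no difference, and Tnfrsf1b had a value of 0.22 (adjusted p = 0.0560). The cytokines Tnf, Il1b, Ifng, Lta and Ltb had too few counts to be tested, between 2 (Ifng) and 149 (Il1b and Ltb) over all mice. Their part in the higher level of Icam1 was not tested.

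Markers of other cells moved as well, in a table where 23.0% of all genes tested were higher and 21.7% lower. Of 11 microglial markers, 7 rose (C1qa by 0.62 and C1qb by 0.57 on the log2 scale) and P2ry12 fell, and their sum reached from 456 to 532 CPM in WT and from 496 to 769 CPM in TG mice. Without T60303 and T61340, the number of calls was 5 instead of 8. Among 9 astrocyte markers, Gfap rose (1.03, adjusted p = 4.97e-08) and 6 fell, including Gja1 (-0.27) and Slc1a2 (-0.32), or 3 with scaling to library size only, and their sum was between 5188 and 6489 CPM in WT and between 4627 and 5801 CPM in TG mice. Of 19 markers of peripheral leukocytes, 17 were too low to be tested, Lck rose (0.64) and Cd4 fell (-1.24), and their sum was between 3.55 and 18.3 CPM in WT and between 4.40 and 10.1 CPM in TG mice. Of 8 neuronal markers 5 fell, led by Nefl (-1.15), and of 10 markers of fibroblasts and meninges Slc47a1 (-0.48) and Dpp4 (-0.35) fell. None of 9 choroid plexus, 5 red blood cell and 7 oligodendrocyte markers was called by edgeR with TMM or by DESeq2, nor had any an unadjusted p under 0.05 in that edgeR fit, while with scaling to library size only 1 oligodendrocyte marker was called higher. How much each of these cells contributes to the Icam1 value was not tested.

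**Figure D2:**
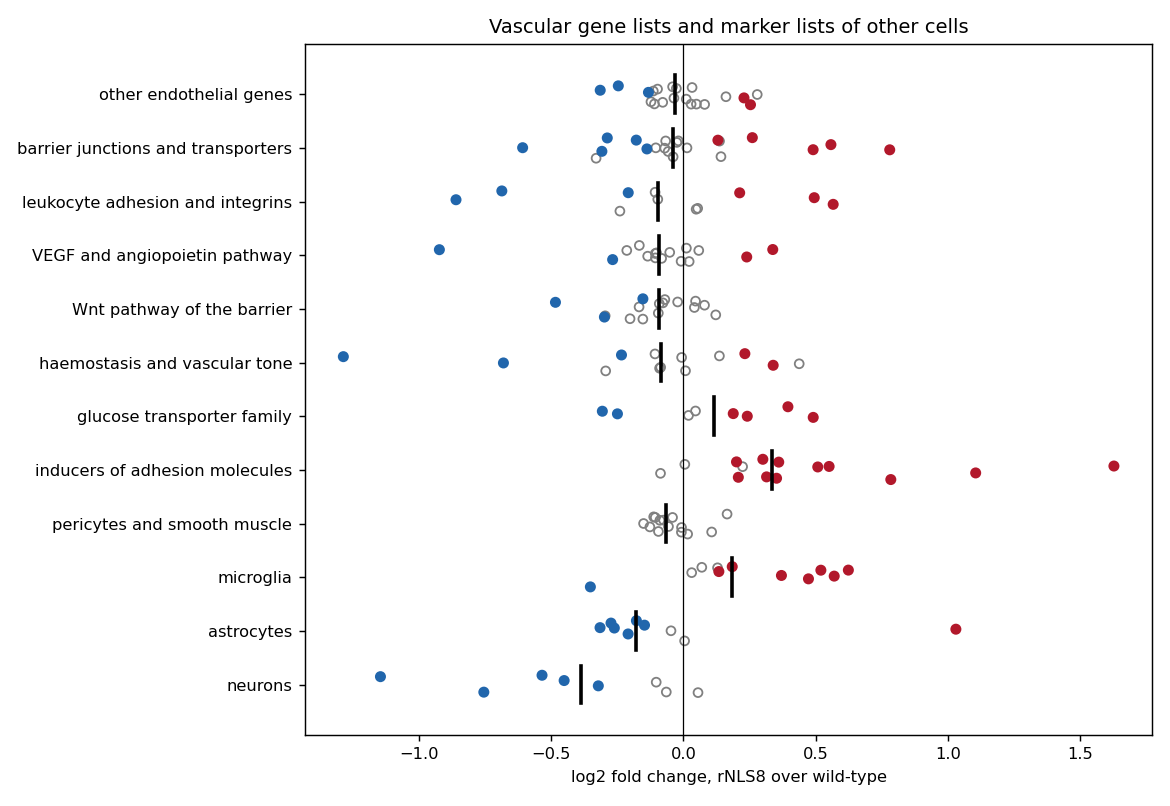
Log2 fold change of rNLS8 over wild-type mice (horizontal axis) for the tested genes of each list, filled where the adjusted p is under 0.05 (red higher, blue lower) and open elsewhere, with a black line at the median of the list. The list of inducers of adhesion molecules, which also holds NF-kB inhibitors, has a median of 0.33. The medians of other endothelial genes (-0.03) and of pericytes and smooth muscle (-0.07) lie near 0, at 0.04 and 0.01 with scaling to library size only.

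Flt1, a receptor for the growth factors Vegfa, Vegfb and Pgf that binds Vegfa tightly and signals weakly, lies on chromosome 5 from 147561604 to 147726011, on the minus strand. Its WT values were 1655, 1928, 1998 and 2025 normalized counts in batch A and 1624 to 1962 in batch B. TG values were 1471, 1514 and 1675 in batch A and 1428 to 1813 in batch B. The genotypes overlapped, with 4 of 10 TG mice below the lowest WT mouse and 6 of 11 WT mice above the highest TG mouse. The means were 1839 ± 140 (SD, n = 11) and 1628 ± 126 (SD, n = 10), which on the log2 scale is a difference of -0.17 (SE 0.050, adjusted p = 0.00620). The sign was the same in batch A (-0.27, adjusted p = 0.128) and batch B (-0.13, adjusted p = 0.0689), neither of which passed the threshold alone. Without T60303 and T61340 the log2 fold change was -0.13 (adjusted p = 0.0451). The call was lost when counts were scaled to library size only (-0.10, adjusted p = 0.0938), a scaling that moved the median of all genes up by 0.08.

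Tek, the gene of the angiopoietin receptor Tie2, is found on chromosome 4 between 94739289 and 94874976. Its means were 395 ± 35.2 (SD, n = 11) and 363 ± 33.6 (SD, n = 10) normalized counts in WT and TG mice. WT values ranged from 348 to 456 with a median of 396, and TG values from 304 to 408 with a median of 364. In 4 TG mice the value was below every WT mouse, and 4 WT mice were above every TG mouse. The log2 difference of -0.12 (SE 0.059, 95% interval -0.24 to 0.00057) did not pass the test (adjusted p = 0.0996).

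Of 19 genes of the VEGF and angiopoietin pathway, 16 were tested, 2 rose and 2 fell. Over all genes tested, 23.0% were higher and 21.7% lower. Among the ligands of Flt1, Vegfb rose from 1237 ± 169 to 1541 ± 276 normalized counts (log2 fold change 0.34, adjusted p = 3.59e-06). Vegfa (-0.21, adjusted p = 0.104) and Pgf (0.06, adjusted p = 0.729) did not pass the test. Kdr, the main signalling receptor for Vegfa in endothelium, fell from 414 ± 68.4 to 343 ± 42.1 normalized counts (-0.27, adjusted p = 0.0152). The ligands of Tek and its partner receptor did not pass, with log2 fold changes of -0.11 for Angpt1, -0.14 for Angpt2 and -0.10 for Tie1. Apln, a peptide hormone made by sprouting endothelium and also by neurons, fell from 849 ± 218 to 431 ± 55.4 normalized counts with all 10 TG mice below every WT mouse (log2 fold change -0.92, adjusted p = 1.03e-09). Pdgfb, with which endothelium recruits pericytes, rose (0.24, adjusted p = 0.000742). None of 14 markers of pericytes and smooth muscle was called by edgeR with TMM, against 1 at an unadjusted p under 0.05 and 1 called lower by DESeq2 and by edgeR with upper-quartile normalization, and their median log2 fold change was -0.07 (0.01 with scaling to library size only).

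Slc2a1 encodes the glucose transporter Glut1, which carries glucose across the barrier, on chromosome 4 from 119108711 to 119137983. WT mice had 1909, 2131, 2193 and 2285 normalized counts in batch A and 1731 to 2577 in batch B. TG mice had 2318 (T60303), 2851 (T61340) and 2851 (T61342) in batch A and 2025 to 2667 in batch B. All 3 TG mice of batch A were above the WT mice of that batch, whereas the genotypes overlapped in batch B. Here too the share of all genes with such a separation was not counted. The means were 2095 ± 219 (SD, n = 11) and 2368 ± 310.0 (SD, n = 10), which on the log2 scale is a rise of 0.18 (SE 0.064, adjusted p = 0.0244). Over both batches, 3 TG mice were above the highest WT mouse. The call did not hold in batch A alone (0.35, adjusted p = 0.0657), in batch B alone (0.10, adjusted p = 0.301) or without T60303 and T61340 together (0.17, adjusted p = 0.0502). It was also lost when 1 of the TG mice T_69524 (adjusted p = 0.0534), T61340 (0.0507) or T61342 (0.0547) was left out, although the log2 fold change stayed between 0.15 and 0.23 whichever mouse was omitted. The antisense genes Gm12867 and Gm12868 overlap Slc2a1, and without strand their reads cannot be told apart from its own.

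Mfsd2a, on chromosome 4 from 122946850 to 122961188, encodes a transporter of lysophospholipids that is known to keep transcytosis low in brain endothelium. Its values were 327, 332, 336 and 387 normalized counts in WT mice of batch A and 283 to 358 in those of batch B. In TG mice they were 371, 485 and 498 in batch A and 276 to 359 in batch B. The values of T61342 and T61340 thus lay above every WT mouse, while in batch B the genotypes covered nearly the same range. Over all mice the means were 325 ± 30.2 (SD, n = 11) and 358 ± 76.5 (SD, n = 10), and the log2 difference of 0.15 (SE 0.071) did not pass the test (adjusted p = 0.0999). The log2 fold change was 0.41 in batch A (adjusted p = 0.0705) and 0.02 in batch B (adjusted p = 0.882). It passed the threshold with scaling to library size only (0.22, adjusted p = 0.0104), without TG mouse T_69526 (0.17, adjusted p = 0.0495) and without WT mouse T_69523 (0.17, adjusted p = 0.0473).

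The other members of the glucose transporter family were mixed, 4 of 8 being higher and 2 lower. Slc2a3, the neuronal glucose transporter, rose from 3194 ± 191 to 3647 ± 306 normalized counts (0.19, adjusted p = 0.00200), which was about the same size on the log2 scale as the difference of Slc2a1. Slc2a6 rose by 0.39 and Slc2a13, a transporter of myo-inositol, fell by 0.31 on the log2 scale. Of 21 other genes of barrier junctions and transporters, 5 rose and 5 fell (6 and 3 with scaling to library size only). Slc7a5 and Slc3a2, the light and the heavy chain of a transporter of large neutral amino acids, had the largest rises, with log2 fold changes of 0.78 (adjusted p = 6.11e-12) and 0.56 (adjusted p = 2.31e-09), and in both all 10 TG mice were above every WT mouse. Plvap, which forms the diaphragms of leaky vessels and is nearly absent from mature barrier endothelium, fell from 160.2 ± 19.0 to 104 ± 28.4 normalized counts (-0.61, adjusted p = 0.000260). Of 16 genes of the Wnt pathway that maintains the barrier, none was called higher and 3 were lower. These were the ligands Wnt7a (-0.48, adjusted p = 4.71e-05) and Wnt7b (-0.15, adjusted p = 0.0469) and the transducer Ctnnb1 (-0.30, adjusted p = 9.38e-06). The other 13, among them Lef1, Axin2 and Apcdd1, did not pass the test. As with the barrier and glucose transporter lists, this stands against 23.0% of all genes tested being higher and 21.7% lower. With scaling to library size only, 1 gene of this list was higher and 2 were lower.

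Cldn5, the principal claudin of the tight junctions of brain endothelium, lies on chromosome 16 from 18776847 to 18778262. It ranged from 546 to 922 normalized counts in WT mice with a median of 808 and from 576 to 869 in TG mice with a median of 786. The TG values fell wholly within the WT range. The means of 780.1 ± 102 (SD, n = 11) and 758 ± 97.0 (SD, n = 10) gave a log2 fold change of -0.03 with a 95% interval from -0.19 to 0.12 (adjusted p = 0.778). The table holds a second row for the same symbol, written Cldn5-2, which exceeded the first in 21 of 21 mice by 3 to 13 counts and had the same log2 fold change of -0.03. Which reads the rows share is not given in the sources used here, and only the first was used.

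Pecam1 and Cdh5 encode the adhesion molecules CD31 and VE-cadherin, by which endothelial cells hold on to each other. Pecam1, on chromosome 11 from 106654217 to 106750628, had values between 478 and 599.8 normalized counts in WT mice (median 525) and between 425 and 606 in TG mice (median 523). Its log2 fold change was 0.01, with a 95% interval from -0.11 to 0.13 (adjusted p = 0.912). Cdh5, on chromosome 8 from 104101625 to 104144511, had values between 291 and 433 in WT mice (median 361) and between 306 and 408 in TG mice (median 353). Its log2 fold change was -0.05 (95% interval -0.19 to 0.08, adjusted p = 0.536), and the antisense gene Gm29682 overlaps its start. Neither gene separated the genotypes in any batch.

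Vwf encodes von Willebrand factor, to which platelets adhere, and lies on chromosome 6 from 125546774 to 125686679. WT values ranged from 397 to 777 normalized counts with a median of 497, and TG values from 379 to 720.2 with a median of 542. With an SD of 112 on a mean of 544 in WT mice, it varied more between mice than Pecam1, whose SD was 35.5 on a mean of 526. Its log2 fold change of -0.04 therefore had the widest 95% interval of the junction and identity genes, from -0.27 to 0.19 (adjusted p = 0.817). Of 13 other genes of haemostasis and vascular tone, 2 rose and 3 fell, against 23.0% of all genes tested being higher and 21.7% lower. Plat, the tissue plasminogen activator, rose (0.23, adjusted p = 0.000399), as did Tgfb1 (0.34, adjusted p = 0.00549), while the platelet receptor chain Gp1bb fell (-0.68, adjusted p = 1.17e-05).

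Of 20 other endothelial genes, 15 did not pass the test, 2 rose and 3 fell, a median log2 fold change of -0.03. Ly6c1, a surface protein of brain endothelium, rose from 548 ± 49.5 to 649.6 ± 112 normalized counts (0.25, adjusted p = 0.00113). Emcn, the sialomucin endomucin of veins and capillaries, fell from 132 ± 12.3 to 106 ± 11.7 (-0.31, adjusted p = 0.00103), and Ptprb, a phosphatase that acts on Tie2, fell from 1227 ± 94.5 to 1032 ± 157 (-0.25, adjusted p = 0.00690). Without T60303 and T61340, 3 genes of this list were called instead of 5. The share called, 5 of 20, was below the 44.7% of all genes tested. With scaling to library size only, 3 were higher and 1 lower, and the median was 0.04.

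**Figure D3:**
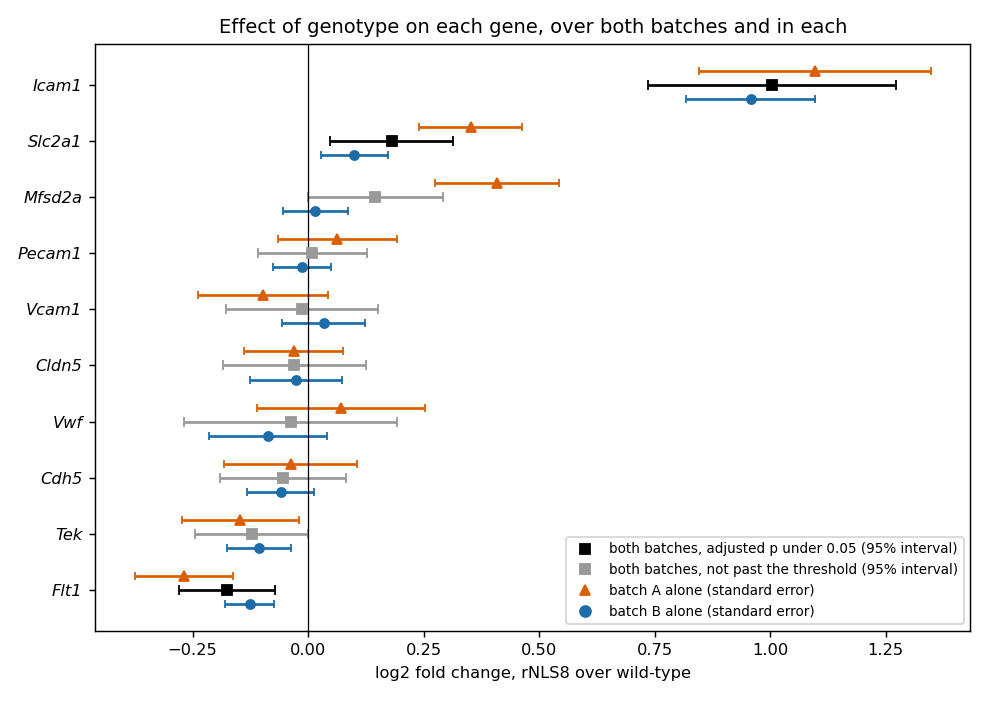
Log2 fold change of rNLS8 over wild-type mice (horizontal axis) for each gene, as squares with 95% intervals over both batches and as triangles and circles with standard errors in batch A and batch B. Icam1 stands at 1.003 (1.10 in batch A and 0.96 in batch B), whereas Slc2a1 and Mfsd2a have larger values in batch A (0.35 and 0.41) than in batch B (0.10 and 0.02).

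A dependence of the genotype effect on batch was tested as an interaction. The largest difference among the 10 genes was that of Mfsd2a, whose log2 fold change was larger in batch A by 0.36 (SE 0.134, p = 0.0128 before adjustment in edgeR), but it did not pass after adjustment over all genes (adjusted p = 0.853). The differences of Slc2a1 (0.22, adjusted p = 0.877), Flt1 (-0.17, adjusted p = 0.877) and Icam1 (0.11, adjusted p = 0.971) did not pass either. Across all genes, 0% were called by edgeR, and DESeq2 called 1 gene. In edgeR 1030 of 18248 genes had an unadjusted p under 0.05, where a share of about 0.05 arises without any interaction.

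How far the 10 genes varied together was described by the correlation of their log2 CPM over the 21 mice after genotype and batch had been fitted out. All values come from the same libraries, with the same depth and the same dissection, and no p is given for them. The closest pairs were Cdh5 with Vcam1 (Pearson's r = 0.65), Vcam1 with Tek (0.65), Cdh5 with Tek (0.65), Vwf with Slc2a1 (0.64), Pecam1 with Cdh5 (0.62) and Pecam1 with Vwf (0.62). Of 45 pairs, 14 had an r above 0.4 and 2 had one below -0.4. Icam1 had no r above 0.36 with any other gene, and Cldn5 none above 0.39. Over the same deviations with T60303 and T61340 left out, and no new fit, these highest values were 0.45 (Icam1 with Pecam1) and 0.44 (Cldn5 with Flt1). The lowest values were those of Cldn5 with Slc2a1 (-0.49) and Mfsd2a with Tek (-0.45). Over the deviations of the batch B mice only, still from the fit to all 21 mice, the values of these pairs were -0.64 and -0.42. That of Cdh5 with Vcam1 was then 0.68.

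**Figure D4:**
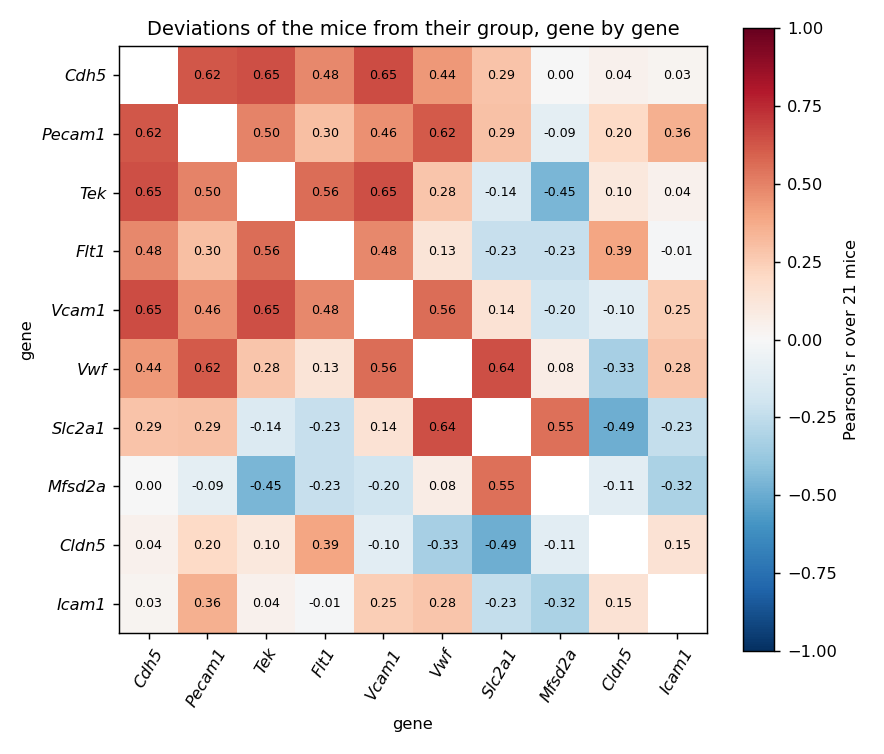
Pearson's r (color, from -1 in blue to 1 in red) between each pair of the 10 genes, over the deviations of the 21 mice from the values fitted for genotype and batch. Cdh5, Pecam1, Tek, Flt1, Vcam1 and Vwf form the block of mostly higher values, up to 0.65, while Icam1 stays at or under 0.36 with every other gene.

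Some mice were extreme for many of the genes at once. WT mouse T61334 was the highest WT mouse for 6 of the 10 genes (Pecam1, Cdh5, Vwf, Icam1, Vcam1 and Tek), and its markers of choroid plexus (2310 CPM), of fibroblasts and meninges (1357 CPM) and of pericytes and smooth muscle (382 CPM) were the highest of all 21 mice. TG mouse T_70267 was the lowest TG mouse for 7 of the 10 genes (Cldn5, Pecam1, Cdh5, Vwf, Icam1, Flt1 and Tek), and its markers of fibroblasts and meninges (577 CPM) and of pericytes and smooth muscle (294 CPM) were the lowest of all mice. The part of these other cells in the values of the 10 genes was not tested. Without T_70267, the log2 fold change of Icam1 was 1.04 and that of Flt1 was -0.16 (adjusted p = 0.0127). With the level of the choroid plexus markers as a covariate, chosen after the data had been seen, Icam1 had a log2 fold change of 0.98, Flt1 of -0.18 and Slc2a1 of 0.18, and all 3 calls were kept.

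Across all genes tested, the gene whose deviations were most like those of Icam1 and which has a single row was Irf1 (r = 0.75, 21 mice), after 2 of the rows for copies of Tapbp, an antigen processing gene (0.80 and 0.76). For Slc2a1 these were the 2 rows of Fkbp5 (0.91 and 0.90) and then Map3k4 (0.84). Flt1 was most like Pde5a (0.87), Pecam1 most like Fcgrt (0.91), Cdh5 most like Podxl (0.85), and Vwf most like Lamb2 (0.84) and Myh11 (0.83). Vcam1 was most like Plxnb2 (0.83), Mfsd2a most like Brpf3 (0.84), Tek most like Capsl (0.78), and Cldn5 most like Adk (0.76). Of these, both Tapbp rows rose (0.84 and 0.85, adjusted p = 1.01e-05 and 3.78e-06), Irf1 rose (0.35, adjusted p = 0.00403), Plxnb2 rose (0.15, adjusted p = 0.0379) and Pde5a fell (-0.32, adjusted p = 0.00117) with genotype. The largest of 18248 such values would be high for any gene, so they are given as descriptions only.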

How the data were processed

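Bulk mRNA of neocortex from 11 WT and 10 TG mice was sequenced by BGI (paired-end, 100 bp) and, per the study's methods, aligned to GRCm38. The submitters' processing notes name HISAT, HISAT2, Bowtie, Bowtie2 and RSEM without roles or versions, and the annotation and the strand setting are not given in the sources used here. As deposited by the authors, the table gives raw integer counts for each symbol, and 2553 rows (4.11% of counts) are further copies of a symbol.

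Groups, batches and mouse numbers were taken from the labels. Counts were tested in R 4.3.3 with edgeR 4.0.16 (filterByExpr with a minimum count of 10 and minimum total of 15, TMM, quasi-likelihood test, batch and genotype in the model, two-sided, Benjamini-Hochberg over 18248 genes, threshold 0.05). Standard errors came from the log2 fold change and F. The genes and lists were chosen with earlier results of these data known, so no adjustment over a list alone was made. From each list the 3 genes with the smallest p and at least 20 normalized counts were named, with direct partners of the 10 genes, and others were named after their values were seen. Some genes that this rule names are not reported here. Positions came from GENCODE for GRCm38 and promoter windows from RefSeq for GRCm38.p6. Alternatives included DESeq2 1.42.0, other scalings and filters, each batch alone and omission of each mouse. On simulated counts the procedure called 92 of 100 genes changed by 1 on the log2 scale and 66 of 100 changed by 0.5. It also called 6 of 18048 unchanged genes, and smaller changes were not simulated. The simulated counts held no batch effect and a far smaller share of changed genes than the 44.7% called in the real data. Such rates therefore need not hold for the real data. Per the study's methods rNLS8 mice came from few litters, and the litter of each mouse is not given, so p-values measure only the spread between these mice. No sample was left out.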

Additional observations from a re-analysis of the deposited data

Results flagged for a closer look

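In 2 of 40 combinations of a gene and a set of mice, 1 mouse stood far from the others. The sets were all TG mice, the WT mice of each batch and the TG mice of batch B. Chance alone gives about 1 in 20 for a single combination, and these combinations share mice and are not independent. Pecam1 in WT mice of batch A was highest in T61334, at 599.8 normalized counts against 497 in the next and 478 in the lowest mouse, so that the gap was 0.845 of the whole range, above Dixon's 95% critical value for 4 mice. Mfsd2a in WT mice of batch A was highest in T61345, at 387 normalized counts against 336 and 327, a ratio of 0.858. Without T61345, the log2 fold change of Mfsd2a was 0.15 (adjusted p = 0.105), and without T61334 that of Vcam1 turned to 0.03.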

How the results depend on the processing

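Icam1 was called under all 12 alternatives (log2 fold change 0.85 to 1.10) and without each mouse in turn (0.92 to 1.08). Flt1 was called without each mouse in turn (-0.19 to -0.16) and lost its call with scaling to library size only (-0.10) and in batch A (-0.27) and batch B (-0.13) alone. Slc2a1 kept its direction throughout (0.10 to 0.35) and its call without 18 of 21 single mice. Batch A alone gave 2195 genes and 1 of the 10 genes called, and batch B alone gave 1 of the 10, where fewer mice were fitted. For the interaction, DESeq2 called 1 gene and edgeR without T60303 and T61340 called 2. With library size only, 67.9% of calls were higher (5832 higher, 2752 lower) against 4190 higher and 3964 lower with TMM.

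Genes near 0 changed sign without being called, namely with library size only Cldn5 (0.047), Cdh5 (0.022), Vwf (0.039) and Vcam1 (0.065), with no filter Vcam1 (0.00066), in batch A alone Vwf (0.071), in batch B alone Pecam1 (-0.013) and Vcam1 (0.034), and without T60303 and T61340 Pecam1 (-0.015). The cause was not tested. Over omissions of single mice, Cldn5 ranged from -0.068 to 0.0030, Pecam1 from -0.022 to 0.041, Vwf from -0.11 to 0.017 and Vcam1 from -0.041 to 0.028. No paired analysis was possible because mouse numbers are not shared between the genotypes.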
